A study of Mus musculus with 6 samples.

Results

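Ly6a, Ly6c1, Ly6c2 and Ly6e, a group of mouse Ly6 surface antigen genes, were examined in tumor-infiltrating Tregs with and without deletion of Xrcc6, the gene of Ku70. They were taken as the rows of the count table whose symbol equals 1 of the 4 names, and they are 4 of 15319 genes listed. The names were chosen on their values in cKO against WT with and without WT replicate 2, so the levels below are a description of these libraries, no p-value is printed for a member, and counts of members past a threshold stand only beside the share of all genes. The tumor-infiltrating Tregs came from WT (Foxp3Yfp-Cre) and cKO (Xrcc6flox/flox Foxp3Yfp-Cre) mice, both kept on a C57BL/6J background. The mice were 8 to 10 weeks old when cells of LLC, a mouse lung carcinoma line, were given by the tail vein, and tumors in the lung were taken after 21 days. Both groups carry the Cre linked to a fluorescent protein at Foxp3, the gene of the Treg lineage factor, so deletion of Xrcc6 is directed to Foxp3-expressing cells. Bulk RNA-Seq was available for 3 WT and 3 cKO libraries, and whether each came from a mouse of its own is not given in the sources used here.

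Ly6 proteins are small, cysteine-rich proteins of the Ly6/uPAR family that are attached to the outer face of the cell membrane by a glycosylphosphatidylinositol (GPI) anchor. Ly6A, also known as Sca-1, marks hematopoietic stem cells and is raised on activated T cells, Ly6C is used to separate monocyte subsets and is carried by memory and less activated T cells, and Ly6E is widely expressed on lymphocytes and is known for its effects on virus entry. Ly6a, Ly6c1, Ly6c2 and Ly6e are known as interferon-responsive genes, and on Tregs low surface Ly6C is used as a sign of antigen receptor signaling.

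In the cKO group Ly6c1 had the higher mean, 80.5 against 39.1 CPM (counts relative to the TMM-scaled library total), a log2 fold change of 1.04 with an SE of 0.43. For Ly6e and Ly6a the log2 fold changes were 0.22 and 0.19, each smaller than its SE. Ly6c2 was a low transcript whose fold change of 0.80 on the log2 scale had an SE of 1.33. WT and cKO libraries overlapped for all 4 genes.

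WT replicate 2 stood apart from the other libraries. At a total count within the range of the 6 libraries (19032620 to 23159815), it had counts in 11513 genes against 14442 to 14737 elsewhere, and its highest correlation with another library was 0.869 against at least 0.986 for the others, in log2 CPM across genes, which are not independent replicates. Therefore values are given with and without it. Xrcc6, the targeted gene, had 20.9, 63.1 and 23.8 CPM in WT replicates 1 to 3 and 5.24, 3.51 and 4.18 CPM in the cKO libraries. The markers of the labelled cell type were present: Foxp3 was between 150 and 282 CPM in the 6 libraries, and 8 of 9 Treg and T cell markers had counts, with sums of 4392 to 6145 CPM in WT and 4924 to 5595 CPM in cKO libraries.

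The 4 genes lie within 157 kb of mouse chromosome 15 (GRCm38, GENCODE vM21). Ly6e is at chr15:74955051-74959905 on the plus strand, Ly6a at chr15:74994877-74998031, Ly6c1 at chr15:75044018-75048830 and Ly6c2 at chr15:75108158-75111970, these last 3 on the minus strand. No member overlaps another annotated gene. Ly6c1 and Ly6c2 are near copies: their coding sequences, 393 bases each without the stop codon, are 97.7% identical and differ at 9 bases, and the longest identical stretch is 188 bases. Ly6a (402 coding bases) is 81.8% identical to Ly6c1 and 81.6% to Ly6c2, and Ly6e (408 bases) is 49.7% to 52.3% identical to the other 3. The first 150 coding bases of the related trio, equal to 1 sequenced read and read from the same annotation, are shown because reads from this end can separate the 3 genes; capitals mark bases that differ from Ly6c1.
Ly6c1: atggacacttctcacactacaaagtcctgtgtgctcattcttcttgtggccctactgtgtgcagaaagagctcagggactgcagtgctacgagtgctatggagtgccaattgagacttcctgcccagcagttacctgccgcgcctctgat
Ly6c2: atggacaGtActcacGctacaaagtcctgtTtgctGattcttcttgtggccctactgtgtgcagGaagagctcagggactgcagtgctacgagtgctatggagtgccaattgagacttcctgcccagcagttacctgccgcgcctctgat
Ly6a: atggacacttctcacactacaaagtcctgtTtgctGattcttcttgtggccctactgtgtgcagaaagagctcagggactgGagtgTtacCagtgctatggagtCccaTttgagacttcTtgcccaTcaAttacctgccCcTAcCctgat

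Within this stretch Ly6c2 differs from Ly6c1 at 6 bases and Ly6a at 14. Over whole transcripts, 39 windows of 150 bases were present in both Ly6c1 and Ly6c2, which is 2.29% of the windows of Ly6c1 and 1.42% of those of Ly6c2, and none was shared with Ly6a or Ly6e. At 50 bases the shared windows of the Ly6c pair were 379, or 21.5% and 13.9%, and Ly6a shared 195 windows with Ly6c1. Deposited counts are not whole where shared reads were divided by an estimate, and they were not whole in 5 of 6 libraries for Ly6a, 6 for Ly6c1 and 5 for Ly6c2 but whole in all 6 for Ly6e. The split between Ly6c1 and Ly6c2 is therefore uncertain, and their sum is given below.

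Ly6e was the most abundant of the 4 transcripts. In CPM per kilobase of merged exons, which allows genes to be compared, the level was 727 ± 237 in the WT group and 847 ± 91.2 in the cKO group for Ly6e, 379 ± 263 and 433 ± 161 for Ly6a, 23.3 ± 13.3 and 48.0 ± 16.4 for Ly6c1 and 1.98 ± 2.02 and 3.46 ± 1.51 for Ly6c2 (SD, n = 3 each). Over the 6 libraries the ranges of Ly6e (484 to 957) and Ly6a (163 to 672) overlapped, although Ly6e was the higher in each library. The range of Ly6a lay above that of Ly6c1 (12.2 to 64.8), and the range of Ly6c1 above that of Ly6c2 (0 to 4.38). Using the longest transcript as the length kept this order, with Ly6c1 at 46.4 in the WT group and 95.3 in the cKO group, and Ly6e at 1206 and 1405. By mean CPM, not divided by length, Ly6e ranked 26 among 15315 genes, Ly6a 313, Ly6c1 3235 and Ly6c2 8983.

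**Figure D1:**
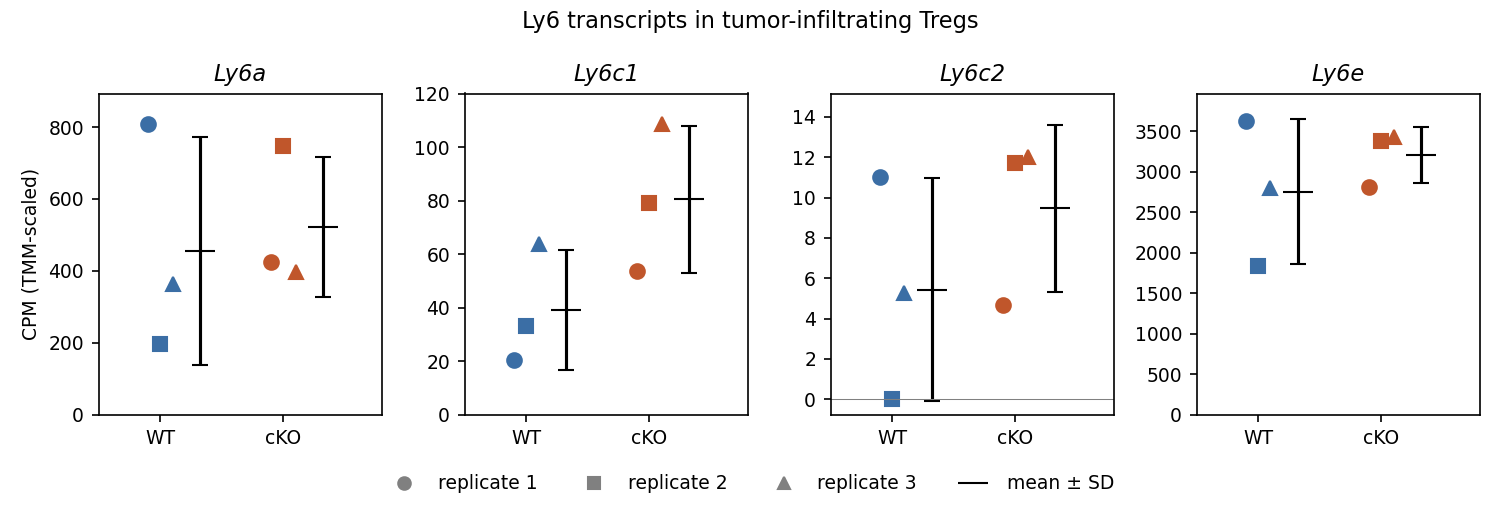
CPM (TMM-scaled, vertical axis from 0, linear, 1 scale per gene) of Ly6a, Ly6c1, Ly6c2 and Ly6e in each WT (blue) and cKO (orange) library, with the replicate number as the symbol and the group mean ± SD as a black bar. WT replicate 2 is the lowest library for Ly6a, Ly6c2 and Ly6e, whereas WT replicate 1 is the lowest for Ly6c1, at 20.5 CPM, and the groups overlap in every panel.

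Ly6e had 3622, 1832 and 2801 CPM in WT replicates 1 to 3 and 2807, 3381 and 3425 CPM in cKO replicates 1 to 3. WT replicate 1 was the highest of all libraries and WT replicate 2 the lowest, and cKO replicate 1 lay next to WT replicate 3. The means were 2751 ± 896 and 3204 ± 345 CPM (SD, n = 3 each), and the coefficient of variation was 32.6% in the WT group and 10.8% in the cKO group, the smallest of the 4 genes in each group. Leaving out WT replicate 2 gave Ly6e a log2 fold change of -0.00 with an SE of 0.22.

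Ly6a had 809, 196 and 364 CPM in the WT libraries and 424, 746 and 396 CPM in the cKO libraries. The highest values thus came from 1 library of each group, WT replicate 1 and cKO replicate 2, and the remaining 4 libraries were between 196 and 424 CPM. The means of Ly6a were 456 ± 317 and 522 ± 194 CPM (SD, n = 3 each) for WT and cKO, a spread within groups of 69.5% and 37.2% of the mean. The direction of the log2 fold change of Ly6a, 0.19 with an SE of 0.50 over all libraries, rested on single libraries: it was -0.17 (SE 0.37) without WT replicate 2, -0.15 without cKO replicate 2 and 0.90 without WT replicate 1.

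Ly6c1 had 20.5, 33.0 and 63.9 CPM in the WT libraries and 53.7, 79.0 and 109 CPM in the cKO libraries. The lowest 2 values were both WT and the highest 2 both cKO, and the groups overlapped because WT replicate 3 exceeded cKO replicate 1. The means were 39.1 ± 22.3 and 80.5 ± 27.5 CPM (SD, n = 3 each). The log2 fold change of Ly6c1 was 0.94 (SE 0.44) without WT replicate 2, and with each library left out in turn its extremes were 0.73 when WT replicate 1 was dropped and 1.60 when WT replicate 3 was. In bulk RNA, a larger share of Ly6c1-expressing cells and more Ly6c1 RNA per cell cannot be told apart.

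Ly6c2 had 11.0, 0 and 5.26 CPM in the WT libraries and 4.69, 11.7 and 12.0 CPM in the cKO libraries. WT replicate 2 had no count, which allows up to 3 counts or 0.141 CPM by counting error alone, while the other 5 libraries had between 101 and 270 counts after rounding. WT replicate 1 was close to the 2 higher cKO libraries, and WT replicate 3 to cKO replicate 1. The means were 5.44 ± 5.52 and 9.47 ± 4.15 CPM (SD, n = 3 each). Leaving out WT replicate 2 gave Ly6c2 a log2 fold change of 0.22 with an SE of 0.44, so the value of 0.80 over all 6 libraries depended on that library.

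Summed, Ly6c1 and Ly6c2 gave 31.5, 33.0 and 69.2 CPM in the WT libraries and 58.4, 90.8 and 121 CPM in the cKO libraries, in the same order as Ly6c1 alone. The log2 fold change of the sum was 1.01 (SE 0.38), and 0.84 (SE 0.37) without WT replicate 2. Ly6c2 made up 35% of the sum in WT replicate 1, none of it in WT replicate 2, and between 7.61% and 12.9% in the other 4 libraries.

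**Figure D2:**
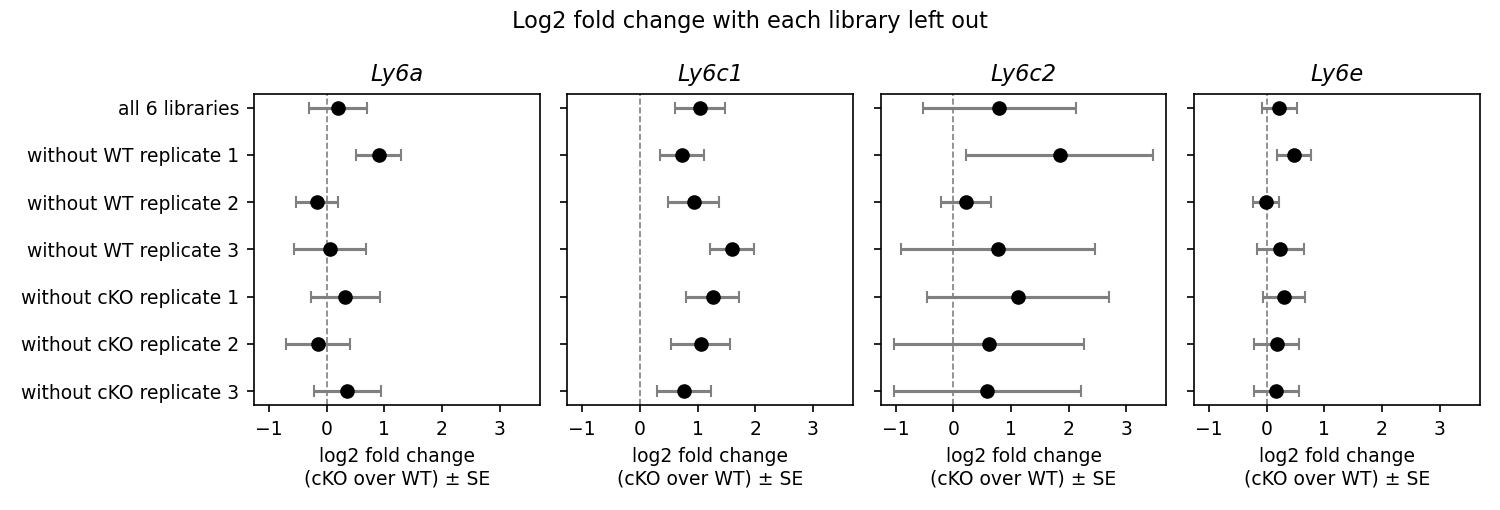
Log2 fold change of cKO over WT (horizontal axis) with its SE (bars) for Ly6a, Ly6c1, Ly6c2 and Ly6e, fitted over all 6 libraries and with each library left out in turn (rows). Ly6c1 stays between 0.73 and 1.60, Ly6a is at 0.90 without WT replicate 1 and at -0.17 when WT replicate 2 is left out, and the bars of Ly6c2 are short only without WT replicate 2.

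Across all genes the contrast gave few calls. By the quasi-likelihood test of edgeR, adjusted by the Benjamini-Hochberg method, 0 of 15315 genes (0%) passed an adjusted p of 0.05, members included. At an unadjusted p under 0.05, 144 genes (0.940%) had higher and 133 (0.868%) had lower cKO values, and these held 1 of the 4 members, Ly6c1, on the higher side and none on the lower side. Because the members were chosen on this contrast, nothing is read from that count. Without WT replicate 2, 1 of 15302 genes (0.00654%), Xrcc6, passed the adjusted threshold, and no member was among the 232 genes (1.52%) that were higher at an unadjusted p under 0.05. DESeq2 over all libraries called 2 of 15265 genes (0.0131%), Ifi208 and Xrcc6, and no member. All cKO values exceeded all WT values in 767 genes (5.01%) and lay below them in 495 (3.23%), and no member was in either set. The median log2 fold change of all genes was 0.04, and -0.01 without WT replicate 2.

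Among the other Ly6/uPAR family genes, 17 of 44 listed names had counts, 11 with a higher and 6 with a lower fitted value in cKO, and none passed the adjusted threshold. Their median log2 fold change was 0.59, with 0.36 without WT replicate 2 and extremes of 0.15 without cKO replicate 2 and 1.02 without WT replicate 1. With Cd177, at 0 in all WT libraries, set to the bound that 3 counts per WT library allow, the median was 0.47. In all, 13 of the 17 had their lowest level in WT replicate 2, with ties given to the first library in order. These 13 include Lypd6b, Cd59b, Ly6g, Ly6g6c and Pinlyp, which were at 0 there and in at least 1 other library. WT replicate 2 was also the lowest of the 6 for 39.6% of the genes with a mean of at least 10 CPM. Most of the 17 did not reach that mean, so the shares are not alike. Among the WT libraries alone WT replicate 2 was the lowest for 52.8% of genes with a WT count, with ties given in the same way. The 3 most abundant were Ly6g5b, Plaur and Ly6k. Ly6g5b had a log2 fold change of -0.95 (SE 0.58), with its highest value, 39.5 CPM, in WT replicate 2. Plaur, the receptor of urokinase, had a log2 fold change of 0.07 (SE 0.56), and Ly6k, a family member best known from the testis, 1.17 (SE 1.31). At an unadjusted p under 0.05 Cd177, a neutrophil surface protein, was the only one of the 17, at 0 in all WT libraries and at 0.311 CPM or less in the cKO libraries, and Plaur took its place without WT replicate 2. The nearest relatives on the chromosome were scarce, and they were looked up after their values were seen. Ly6i, between Ly6e and Ly6a, had 1.48, 0.893 and 1.77 CPM in the WT and 2.09, 2.35 and 1.82 CPM in the cKO libraries, so that all cKO libraries exceeded all WT libraries. Its log2 fold change was 0.59 with an SE of 0.63, and 4 of its 6 deposited values were not whole. Ly6g, the classical neutrophil antigen, had at most 3 counts in any library.

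The pathway that builds and attaches GPI anchors, on which the surface display of Ly6 proteins depends, was read next. All 31 listed genes of GPI anchor synthesis and remodelling had counts, 17 of them with higher and 14 with lower cKO values and a median log2 fold change of 0.04, and 0 passed by edgeR at an adjusted or an unadjusted p under 0.05. Pigt, a subunit of the transamidase that joins the anchor to the protein, had a log2 fold change of 0.01 (SE 0.13), Pigs, of the same complex, -0.07 (SE 0.15), and Mppe1, which remodels the anchor, -0.33 (SE 0.21). Of 12 other GPI-anchored T cell surface proteins 7 were higher and 5 lower, at a median of 0.05, with 0 genes at either threshold by edgeR. The medians of both lists were -0.00 when scaled by library size only, and -0.03 and -0.06 without WT replicate 2. Cd52, which encodes a small anchored glycopeptide of lymphocytes, had 1284, 299 and 795 CPM in the WT and 744, 1133 and 910 CPM in the cKO libraries, which like Ly6e placed WT replicate 1 highest and WT replicate 2 lowest. Thy1 and Izumo1r, which encodes folate receptor 4 of Tregs, had log2 fold changes of 0.23 (SE 0.22) and 0.08 (SE 0.24).

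Interferon-stimulated genes were examined since the members are known to respond to interferons. Of 45 listed, 43 had counts, 26 with higher and 17 with lower cKO values, at a median log2 fold change of 0.06 and of -0.01 without WT replicate 2. No gene of the list passed the adjusted threshold, and at an unadjusted p under 0.05 Ifit2, an antiviral RNA-binding protein, was higher (log2 fold change 0.62, SE 0.26) and Cxcl10, a chemokine, was lower (-0.51, SE 0.20). Without WT replicate 2, Ifit2 and Ifit1bl1 were higher at that threshold (log2 fold changes 0.43 and 0.52), and no gene of the list was lower. Among the most abundant, Ifi27l2a and Psmb8, an immunoproteasome subunit, had log2 fold changes of 0.27 (SE 0.42) and 0.08 (SE 0.29). Of the 43 genes, 24 were lowest in WT replicate 2, 13 highest in WT replicate 1 and another 13 highest in cKO replicate 2, which are the lowest and the 2 highest libraries of Ly6a. Among the 8447 genes with a mean of at least 10 CPM, 39.6% were lowest in WT replicate 2, 19.5% highest in WT replicate 1 and 12.5% highest in cKO replicate 2. Summed, the list had 5893, 3860 and 4768 CPM in the WT libraries and 4848, 5592 and 4682 CPM in the cKO libraries.

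Ly6c1 was set beside genes of resting and effector Tregs, because surface Ly6C is used to divide Tregs by activation. The resting Treg list, which holds homing receptors and transcription factors of quiescent T cells, had counts for all 14 genes, 10 with higher and 4 with lower cKO values, at a median log2 fold change of 0.16. This median was 0.48 without WT replicate 2, -0.15 without WT replicate 1 and -0.01 without cKO replicate 3. None passed the adjusted threshold, and without WT replicate 2 only Actn1 had an unadjusted p under 0.05. All 14 had their lowest value in WT replicate 1, which is also the lowest library of Ly6c1, while 1522 of the 8447 genes with a mean of at least 10 CPM were lowest there. In WT replicate 2 the lists parted: 8 of the 14 resting genes were highest in that library, where Ly6c1, at 33.0 CPM, was second lowest. Klf2, a factor of T cell quiescence, had 285, 1686 and 956 CPM in the WT and 854, 1030 and 1311 CPM in the cKO libraries. Ccr7, the lymph node homing receptor, and Dgka, which dampens receptor signaling, had log2 fold changes of 0.19 (SE 0.22) and 0.07 (SE 0.29).

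The effector Treg list, with costimulatory receptors and suppressive molecules, had 3 genes higher and 15 lower of 18, with a median log2 fold change of -0.20 and of -0.31 without WT replicate 2. None passed the adjusted threshold, and Cd83, an activation marker, was the only one at an unadjusted p under 0.05, with a log2 fold change of -0.54 (SE 0.21). Without WT replicate 2 no gene of this list was at an unadjusted p under 0.05. Of the 18, 10 were highest in WT replicate 1, the library with the most Ly6a and Ly6e and the least Ly6c1. Among all genes with a mean of at least 10 CPM, 19.5% were highest there. Tnfrsf4 (OX40), the most abundant, had 3072, 1896 and 1678 CPM in the WT and 1879, 1920 and 1664 CPM in the cKO libraries. Ctla4, an inhibitory receptor of Tregs, had a log2 fold change of -0.27 (SE 0.21), and Tigit, another inhibitory receptor, 0.08 (SE 0.32).

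Markers of other cell types that carry Ly6 antigens were also read. All 10 monocyte and macrophage markers had counts, 9 with higher and 1 with lower cKO values at a median log2 fold change of 0.57 and of 0.72 without WT replicate 2, with 0 passing by edgeR at an adjusted or an unadjusted p under 0.05. Their sum was 284 to 816 CPM in WT and 360 to 1022 CPM in cKO libraries, with Lyz2 the most abundant in each library (129 to 625 CPM), and of the 10 only Fcgr1 was at 0 in a library, WT replicate 2. Of these markers 7 were lowest in WT replicate 1 and 8 highest in cKO replicate 3, the lowest and the highest library of Ly6c1. Of 8447 genes with a mean of at least 10 CPM, 1522 were lowest in WT replicate 1 and 862 highest in cKO replicate 3. Highest in cKO replicate 3 were also 5 of 7 fibroblast and 5 of 7 B cell markers, but 1 of 9 lung epithelium markers. Neutrophil markers had counts for 8 of 10 genes, 6 with higher and 2 with lower cKO values at a median of 0.26 (0.70 without WT replicate 2), and summed to 11.4 to 20.5 CPM (WT) and 15.9 to 19.8 CPM (cKO), with Elane and Camp without counts and Retnlg and Ngp at 0 in all WT libraries. Retnlg, Ngp and S100a9 had higher cKO values at an unadjusted p under 0.05, at 1.91 CPM or less, and no marker of any cell type passed the adjusted threshold. Endothelial markers, of cells known to carry Ly6C and Ly6A, had counts for 9 of 10, 8 with higher and 1 with lower cKO values at a median log2 fold change of 1.15 (0.78 without WT replicate 2), and summed to 61.2 to 86.5 and 70.6 to 96.2 CPM, nearly all from Pecam1, which T cells also express. Cdh5, Kdr and Cldn5 were at 0.67 CPM or less in every library. Tie1, the lower one, had 6.63 CPM in WT replicate 2 and 0.489 CPM or less in every other library, with a log2 fold change of -3.70 (SE 2.51). Plvap, the only endothelial marker at an unadjusted p under 0.05, was at 0 in all WT libraries and at 0.144 to 0.510 CPM in the cKO libraries. In the fit over all 6 libraries, values were higher in cKO for 7 of 7 fibroblast, 7 of 7 CD8 T and NK cell, 5 of 7 B cell, 3 of 6 plasma cell and plasmacytoid dendritic cell and 5 of 9 lung epithelium markers with counts. The median log2 fold changes of these lists, in that order, were 0.76, 0.35, 0.44, 0.01 and 0.11. Without WT replicate 2 they were 0.25, 0.18, 0.97, 0.51 and -0.39. Not all fibroblast and CD8 T and NK cell markers were then higher: Col1a1 was at -0.17 and Cd8a at -0.53. Of the markers in these lists, Mzb1 of plasma cells and Pax5 of B cells, at 2.98 CPM or less in any library, had higher cKO values at an unadjusted p under 0.05 over all libraries. Without WT replicate 2 only Mzb1 did. The sums overlapped between groups for the remaining lists except CD8 T and NK cells: fibroblasts (0.0470 to 3.96 CPM in WT and 2.88 to 5.47 CPM in cKO libraries), plasma cells and plasmacytoid dendritic cells (10.2 to 82.2 and 14.6 to 32.5 CPM), B cells (17.1 to 28.9 and 14.1 to 56.1 CPM), lung epithelium (40.4 to 106 and 42.3 to 71.5 CPM), and CD8 T and NK cells (8.32 to 29.8 and 30.0 to 30.6 CPM). The part of these cell types in the levels of the members was not tested.

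**Figure D3:**
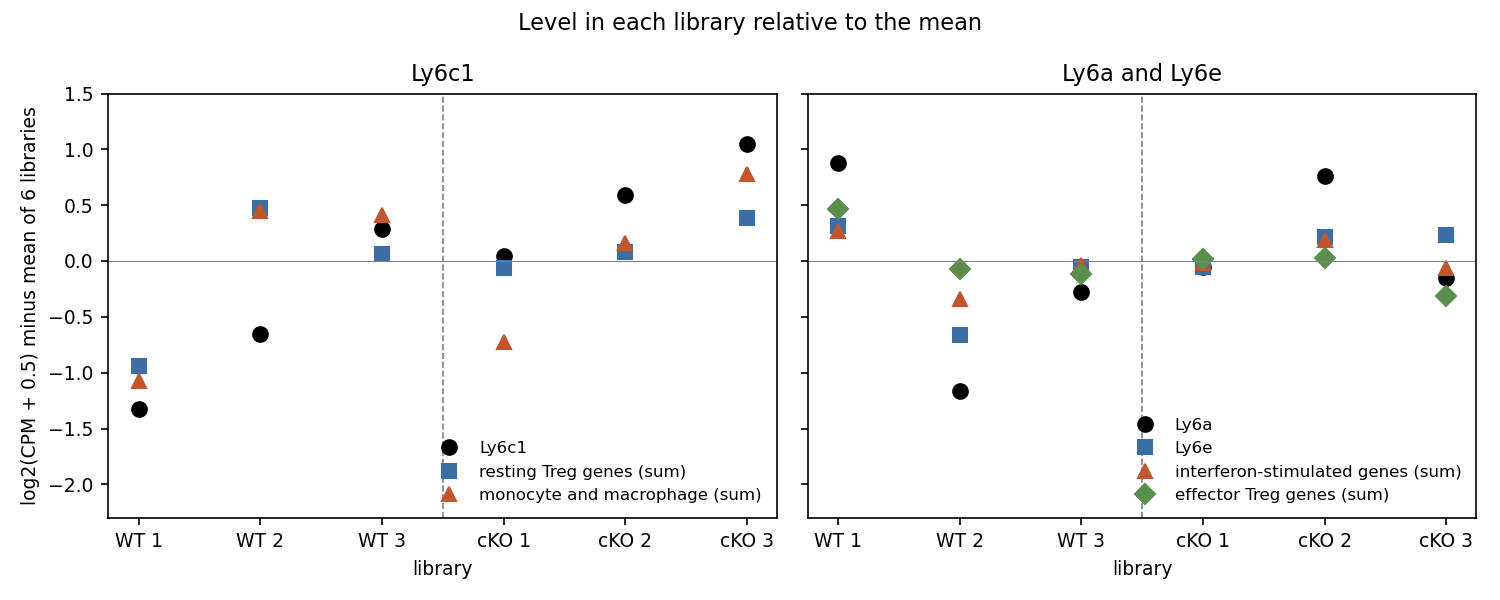
Level in each library as log2(CPM + 0.5) minus the mean of the 6 libraries (vertical axis) for Ly6c1 with the summed resting Treg genes and the summed monocyte and macrophage markers (left), and for Ly6a and Ly6e with the summed interferon-stimulated and effector Treg genes (right). On the left all 3 series are lowest in WT replicate 1 and part in WT replicate 2, where both sums are above their mean and Ly6c1, at 33.0 CPM, is below its own. On the right Ly6a and Ly6e are highest in WT replicate 1 and lowest in WT replicate 2.

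The genes whose levels over the 6 libraries were most like each member were found by the root mean square (RMS) difference between centered log2(CPM + 0.5) values, among 8447 genes with a mean of at least 10 CPM. For Ly6e the nearest were Actb, Anxa6 and Atp5d, at 0.024, 0.030 and 0.039, against a median over all genes of 0.40. For Ly6a they included Isg20, an interferon-induced exonuclease, at 0.12 and Serpina3g at 0.18, against a median of 0.71. For Ly6c1 they were Cd14, the endotoxin coreceptor of monocytes, at 0.17, Rras2 at 0.24 and Cd7 at 0.25, against a median of 0.83. Cd14 had 5.07, 9.49 and 21.0 CPM in the WT and 12.0, 23.5 and 31.6 CPM in the cKO libraries. For Ly6c2 the nearest, Birc5, Idh2 and Agpat4, were at 0.36 to 0.41. Between members, Ly6a and Ly6e were the most alike, at 0.42, and Ly6c1 and Ly6c2 the least, at 1.53. This last value includes WT replicate 2, where Ly6c2 had no count and Ly6c1 had 33.0 CPM, and it rests on an uncertain split of reads. The differences between members were not computed without that library. Without WT replicate 2 only Isg20 stayed among the 3 nearest genes of a member, at 0.13 from Ly6a. The nearest of Ly6c1 then included Ccl9 and Klf2, at 0.13 and 0.14. For Ly6a, Gas2 and the chemokine Ccl5 followed at 0.15 and 0.16, the nearest of Ly6e were Lamtor1, Rac2 and Atp6v0d1, and those of Ly6c2 were Emp3, Hist1h2ao and Tmem160.

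Finally, the members were placed in their chromosomal surroundings. Within 1 megabase of them, 30 other genes were tested, 20 with higher and 10 with lower cKO values, at a median log2 fold change of 0.37 that was 0.04 without WT replicate 2. By edgeR 0 of these 30 passed at an adjusted or an unadjusted p under 0.05. Apart from Ly6i, all cKO libraries were on 1 side of all WT libraries only for Nrbp2, a pseudokinase gene with a log2 fold change of -0.83 (SE 0.44). Xrcc6 lies on the same chromosome at chr15:81987835-82040085, 6.88 megabases from the last base of Ly6c2. The cKO group therefore differs from the WT group both in Ku70 and in the copy of chromosome 15 that carries the floxed allele, and for the members these cannot be told apart. Between the members and Xrcc6, 167 genes were tested, 91 higher and 76 lower, with a median log2 fold change of 0.03.

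**Figure D4:**
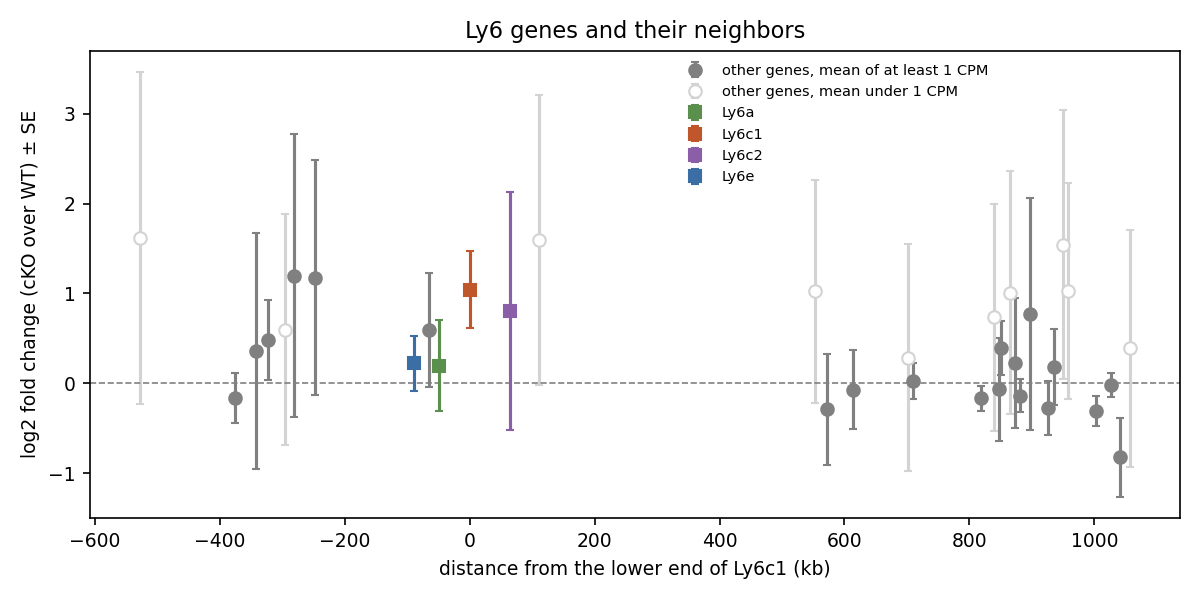
Log2 fold change of cKO over WT ± SE (vertical axis) of the members (colored squares) and the 30 other tested genes within 1 megabase (circles, open where the mean is under 1 CPM) against the distance of the gene's lower end from that of Ly6c1 in kb (horizontal axis). Ly6c1, at 1.04, is above its neighbors Ly6e, Ly6i and Ly6a, at 0.22, 0.59 and 0.19. Ly6g, Ly6d, Ly6k, Adgrb1 and Mapk15, at 1.60, 1.20, 1.17, 1.61 and 1.54, are above Ly6c1, with SEs of 1.31 to 1.85 against 0.43. Other genes in the window have values on both sides of 0.

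Promoter sequence was held in RefSeq (GRCm38.p6) for Ly6c1 and Ly6c2, with 2 starts each, and Ly6a and Ly6e were not matched there. In the 250 bases before each start, neither GAAANNGAA, the core of the interferon-stimulated response element, nor TTCNNNGAA, the gamma-activated site, was found on either strand; the motifs can overlap. Over 32851 starts in the same table these letters were present in 7.13% and 7.02%. The 250 bases before the first listed starts of Ly6c1 and Ly6c2 were identical at 164 of 284 aligned columns, gaps included (57.7%). Their coding sequences were 97.7% identical. The other listed starts were not compared and no unrelated promoters were aligned, so whether the promoters have diverged was not tested.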

How the data were processed

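Bulk RNA-Seq of tumor-infiltrating Tregs was used from 3 WT and 3 cKO libraries, grouped by the genotype label. The authors aligned clean paired-end reads of 150 bases to GRCm38 and deposited an estimated count per gene symbol and library, not normalized; the submitters' processing notes list Bowtie2 (version 2.3.4.3) and RSEM (version 1.3.1), and the annotation is not given in the sources used here. Dividing shared reads by an estimate makes values not whole (21.6% of values), and such values were present for Ly6a, Ly6c1 and Ly6c2. How much of each count was divided was not measured. Counts were rounded, scaled by TMM to CPM and tested in R (version 4.3.3) with edgeR's quasi-likelihood test (version 4.0.16), cKO against WT, and p-values were adjusted by the Benjamini-Hochberg method over 15315 genes, those having 1 count or more in all. The SE of a log2 fold change was its size divided by the square root of F. Alternatives were DESeq2 (version 1.42.0, the tool of the study), median-of-ratios scaling, library size only, filterByExpr (minimum count 10), the replicate number as a block, and each library left out in turn. A count of 3 was worth 0.133 to 0.156 CPM, a limit that covers counting error only. Replicates of a group differed by more than sampling noise and were each used as 1 sample. Nothing states that they came from separate mice, so p-values measure only the spread between these samples.

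The members and the lists, which were written from general knowledge, were chosen with earlier results of these data known. In each list the 3 genes with the highest mean CPM were named, with any gene past an adjusted p of 0.05. For each member, the 3 genes most like it were named. Genes named at an unadjusted p, Ly6i, Ly6g, Ly6d, Adgrb1, Mapk15, Nrbp2, Foxp3 and single marker genes were named after their values were seen. Gene positions and coding sequences were read from GENCODE vM21, and the coding sequence carried by most complete transcripts was used. Coding sequences were compared by global alignment. The script was tested on simulated data. Protein sequences were not used here. Some genes that the rule names are not reported here.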

Additional observations from a re-analysis of the deposited data

How the results depend on the processing

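The log2 fold changes of all 4 members moved by less than the spread between replicates under every alternative. With each library left out in turn they ranged from -0.17 to 0.90 for Ly6a, from 0.73 to 1.60 for Ly6c1, from 0.22 to 1.85 for Ly6c2 and from -0.00 to 0.47 for Ly6e, so that the sign of Ly6a turned without WT replicate 2 or cKO replicate 2 and that of Ly6e without WT replicate 2. DESeq2, median-of-ratios scaling, library size only and filterByExpr gave values between 0.16 and 0.20 for Ly6a, 0.96 and 1.05 for Ly6c1, 0.78 and 0.81 for Ly6c2 and 0.17 and 0.23 for Ly6e. The number of genes past an adjusted p of 0.05, 0 by edgeR, was 2 by DESeq2 and 0 to 1 with a library left out. The 277 genes at an unadjusted p under 0.05 became 140 with filterByExpr and 65 to 874 with a library left out, the most without WT replicate 1 and the fewest without cKO replicate 3. The cause was not tested.

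Whether the replicate numbers pair the samples is not stated, and 3 libraries per group cannot decide it. The deviations of same-numbered WT and cKO libraries correlated at 0.11, -0.09 and 0.21. With the replicate block, 0 genes passed the adjusted threshold and 85 had an unadjusted p under 0.05 by edgeR. The blocked log2 fold changes were 0.35 (SE 0.56) for Ly6a, 1.14 (SE 0.20) for Ly6c1, 1.70 (SE 1.99) for Ly6c2 and 0.27 (SE 0.37) for Ly6e. The SE of Ly6c1 was thus smaller than the 0.43 of the fit without the block, and those of the other members were larger. Not every library correlated best with its own number. The SE of Ly6c2 was 1.33 over all libraries and 0.44 without WT replicate 2, where it had no count.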
